A study of Mus musculus with 90 samples.

Results

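The genes described here are 41 members of the immediate early and NF-kB response, followed through sorted T cells from tumours, from non-draining lymph nodes and from a source labelled naive. The members were given as a list of symbols, with no measured value in the rule. The list was chosen with earlier results of these data known, which limits what shares set beside all genes can show. All 41 were found among the 23420 genes of the count table. By role they comprise 7 subunits of the AP-1 transcription factor (Fos, Fosb, Fosl1, Fosl2, Jun, Junb, Jund), 12 other transcriptional regulators (Egr1, Egr2, Egr3, Atf3, Klf4, Klf6, Maff, Mafk, Crem, Csrnp1, Myc, Per1) and 8 early response and growth arrest genes (Ier2, Ier3, Ier5, Btg1, Btg2, Gadd45a, Gadd45b, Ppp1r15a). The others are 3 mRNA decay factors (Zfp36, Zfp36l1, Zfp36l2), 4 NF-kB subunits (Nfkb1, Nfkb2, Rel, Relb), 4 NF-kB inhibitors and modulators (Nfkbia, Nfkbid, Nfkbiz, Tnfaip3) and 3 genes of the cell surface and of G protein signalling (Cd69, Rgs1, Rgs2).

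The series holds RNA sequencing of 90 libraries of mouse T cells in 30 groups, and asks how regulatory T cells (Tregs) that make the cytokines IL-10 and IL-35 differ from one another and what their loss does to tumour CD8 T cells. In the Treg series of 30 libraries, Tregs of mice labelled WT were sorted into cells negative for both cytokines (DN, labelled DoubleNeg), IL10 cells and Ebi3 cells, Ebi3 being a subunit of IL-35. Each of these subsets came from the tumour (TIL), from a non-draining lymph node (ndLN) and from a source labelled NaiveTcell, called naive here, whose tissue the labels do not give. Effector T cells of the naive source (Teff) were the tenth group. Each of the 10 groups has 3 libraries, and the labels give replicates 1, 2 and 3 as batches. In the CD8 series of 60 libraries, tumour CD8 T cells were sorted on the inhibitory receptors PD-1 and TIM-3 into NEG (PD-1 negative, TIM-3 negative), INT (PD-1 intermediate, TIM-3 negative), SP (PD-1 high, TIM-3 negative) and DP (PD-1 high, TIM-3 positive) cells, and CD8 T cells of the non-draining lymph node (NDLN) were the fifth population. Each population holds 3 yfp, 4 DKO, 2 Il10 and 3 Ebi3L libraries from the same 12 sources, where a source is a genotype in a set of libraries named in the labels. By the design text the IL-10, IL-35 and double knockouts lie in Tregs, so the CD8 T cells themselves are not the cells in which the genes were deleted. The labels name no Cre driver, tumour line, age or number of mice per library, and nothing in them ties a library to its own animal. The p-values therefore reflect only how much these libraries vary, some of which may be technical.

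Immediate early genes are transcribed within minutes of a signal, with no need for new protein. In T cells, ligation of the antigen receptor starts MAP kinase and calcium signals that act through serum response factor at CArG boxes and through CREB at cAMP response elements (CRE), and it frees NF-kB dimers that bind kB sites. Several targets close the loop: Nfkbia and Tnfaip3 encode inhibitors of NF-kB, and Zfp36 and its relatives encode proteins that bind AU-rich elements and speed the decay of early mRNAs.

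Promoters of 6 members are printed because these genes rose from node to tumour in all 3 Treg subsets described in the following paragraphs and because their start sites carry different kinds of element. RefSeq sequences on GRCm38.p6 were found for 29 of the 41 members. Each run is the 250 bases before a transcription start, 5′ to 3′ on the gene's strand, with matches in capitals.
Nfkbia, chr12:55492648-55492897, minus strand: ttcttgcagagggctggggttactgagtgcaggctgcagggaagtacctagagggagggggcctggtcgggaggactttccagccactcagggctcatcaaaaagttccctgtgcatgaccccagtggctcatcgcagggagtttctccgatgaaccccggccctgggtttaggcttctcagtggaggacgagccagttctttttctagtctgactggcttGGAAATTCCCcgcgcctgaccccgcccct
Tnfaip3, chr10:19015411-19015660, minus strand: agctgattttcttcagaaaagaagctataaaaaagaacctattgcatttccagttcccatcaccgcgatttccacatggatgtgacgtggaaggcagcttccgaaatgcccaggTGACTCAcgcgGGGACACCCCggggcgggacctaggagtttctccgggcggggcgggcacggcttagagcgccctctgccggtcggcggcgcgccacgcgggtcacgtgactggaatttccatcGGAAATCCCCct
Nfkb2, chr19:46304487-46304736, plus strand: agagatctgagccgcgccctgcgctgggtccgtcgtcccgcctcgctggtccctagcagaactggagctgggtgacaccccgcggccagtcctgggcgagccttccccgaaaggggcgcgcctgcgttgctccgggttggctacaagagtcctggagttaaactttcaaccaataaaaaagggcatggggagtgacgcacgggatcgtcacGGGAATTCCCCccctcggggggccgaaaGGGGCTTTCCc
Fos, chr12:85473640-85473889, plus strand: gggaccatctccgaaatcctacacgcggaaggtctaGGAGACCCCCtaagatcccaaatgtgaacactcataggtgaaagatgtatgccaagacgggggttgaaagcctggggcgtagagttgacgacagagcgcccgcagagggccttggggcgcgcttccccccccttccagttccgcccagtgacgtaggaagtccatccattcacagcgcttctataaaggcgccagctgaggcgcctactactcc
Zfp36, chr7:28379229-28379478, minus strand: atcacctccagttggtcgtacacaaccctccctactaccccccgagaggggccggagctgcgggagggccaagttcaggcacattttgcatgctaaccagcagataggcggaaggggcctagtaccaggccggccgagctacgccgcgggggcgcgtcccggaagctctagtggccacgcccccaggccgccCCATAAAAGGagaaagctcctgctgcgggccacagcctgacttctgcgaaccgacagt
Ppp1r15a, chr7:45526269-45526518, minus strand: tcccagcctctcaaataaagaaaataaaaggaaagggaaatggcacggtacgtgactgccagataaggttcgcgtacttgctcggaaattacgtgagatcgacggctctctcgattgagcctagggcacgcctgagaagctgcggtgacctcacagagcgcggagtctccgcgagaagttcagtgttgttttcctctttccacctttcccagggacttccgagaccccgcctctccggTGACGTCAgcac

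The capitals mark a kB site that begins 29 bases before the Nfkbia start, kB sites at 125 and 12 bases and an AP-1 site at 136 bases before the Tnfaip3 start, and kB sites at 39, 38 and 11 bases before the Nfkb2 start, the first pair overlapping. The printed start is 1 of 2 RefSeq starts of Tnfaip3, the other with no match, and 1 of 3 of Nfkb2, the others with a kB site at 236 and 225 bases. In Fos they mark a kB site at 214 bases, in Zfp36 a CArG box at 58 bases and in Ppp1r15a a CRE at 12 bases before the start. The search covered both strands and let matches of different motifs overlap, and it used the kB site, the CArG box, the AP-1 site TGACTCA or TGAGTCA, the CRE TGACGTCA and the EGR site GCGTGGGCG. A kB site was present in 29.5% of the 44 promoters of members and in 7.25% of all 32851 mouse promoters of the same length. The corresponding shares were 11.4% and 1.47% for the CArG box, 9.09% and 1.55% for the CRE, 4.55% and 4.46% for the AP-1 site and 2.27% and 0.536% for the EGR site. The list was made of NF-kB and immediate early response genes, so a higher share of such sites is not an independent result. Promoters of 1 gene are not independent: the 5 with a CArG box are 4 starts of Egr2, 3 of which hold the same box, and 1 of Zfp36. Of the 29 members matched, 11 had a kB site, 2 a CArG box, 4 a CRE, 2 an AP-1 site and 1 an EGR site in at least 1 promoter. The corresponding shares by gene over all mouse genes were not computed. The 11 members with a kB site were Egr2, Fos, Fosb, Fosl2, Ier3, Maff, Nfkb2, Nfkbia, Nfkbid, Rel and Tnfaip3. A match is a description of these letters and not a measured binding site. No entry was used for Egr3, Crem, Nfkb1, Cd69, Ier2, Relb, Egr1, Zfp36l2, Fosl1, Myc, Rgs1 and Nfkbiz.

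Levels are in CPM, the count scaled to the library total, and 3 or 4 values given together are the libraries in replicate order. Totals ran from 9.73 to 20.2 M counts in the Treg series and from 19.2 to 47.7 M counts in the CD8 series (M for mega), so that 3 counts, the floor used here, correspond to 0.148 to 0.308 CPM and 0.0629 to 0.156 CPM. The transcripts behind the sorts were read first. Cd8a lay between 694 and 1502 CPM in CD8 libraries and at most at 11.6 CPM in the Treg series. The summed Treg markers Foxp3, Il2ra and Ikzf2 lay between 946 and 1604 CPM in the Treg groups and between 21.6 and 44.8 CPM in Teff. Foxp3 alone stood at 29.7, 15.9 and 27.6 CPM in Teff and at 29.1 CPM in ndLN Ebi3 replicate 3, which overlaps. Pdcd1, which encodes PD-1, ran from 1.24 to 85.9 CPM in NEG, 47 to 784 in INT, 880.3 to 2388 in SP and 652 to 1742 in DP, and Havcr2, which encodes TIM-3, from 0 to 11, 0.486 to 30.1, 5.74 to 82.2 and 184 to 473 CPM, so that DP lay above the others for Havcr2 while SP and DP overlapped for Pdcd1. Il10 ran from 115 to 155 CPM in TIL, 94.4 to 120.4 in ndLN and 78.8 to 129 in naive IL10 Tregs and at most at 5.14 CPM in the other groups. Ebi3 ran from 6.06 to 15.7, 4.92 to 10.6 and 6.90 to 9.08 CPM in Ebi3 Tregs of these sources and reached 6.70 CPM in a TIL IL10 library, which overlaps. Summed over the 41 members, expression ran from 2679.6 CPM in an NDLN library to 15659.8 CPM in a TIL DN library. Differences are log2 fold changes ± standard error (SE) from edgeR's quasi-likelihood test, and a gene is said to rise or fall where its Benjamini-Hochberg adjusted p over all genes tested was under 0.05. In bulk samples, fewer cells that express a gene and less RNA per cell cannot be told apart.

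Tregs of the tumour were first set against Tregs of the non-draining node within each subset. The sites differ in tissue, so site and any difference in how the tissues were handled before sorting cannot be told apart. From node to tumour 26 of the 41 members rose and 1 fell in DN Tregs, 19 rose and 1 fell in IL10 Tregs, and 21 rose and 1 fell in Ebi3 Tregs. Among all 12907 genes tested, 23.4%, 9.32% and 10.3% passed in either direction in these subsets. The shares of all genes that rose were 12.9%, 5.56% and 6.24%, and those that fell 10.5%, 3.77% and 4.01%. The median log2 fold change of the members was 1.12, 1.03 and 1.25, beside 0.01, -0.02 and -0.04 over all genes, and it was the same with members at or under the floor set to their bounds. The 3 comparisons share no library, but they share the 3 batches and 1 estimate of the spread, so they are not independent repeats. In all of them 17 members rose: Fos, Fosl2, Junb, Jund, Zfp36, Klf6, Rgs1, Rgs2, Tnfaip3, Nfkbia, Nfkbiz, Nfkb2, Gadd45b, Crem, Csrnp1, Ppp1r15a and Cd69. Egr1, Egr2, Egr3, Ier5, Btg1, Btg2, Zfp36l2, Nfkb1, Relb, Gadd45a, Myc, Maff and Mafk, 13 in number, rose in none. Within single batches the median difference of the 41 members, tumour minus node, ran from 0.79 to 1.63 on the log2 scale over the 9 pairs of libraries.

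Of the 4 inhibitors and modulators of NF-kB, 4 rose in DN, 3 in IL10 and 3 in Ebi3 Tregs. Tnfaip3, which encodes a ubiquitin-editing inhibitor of NF-kB signalling, stood at 102, 133 and 78.6 CPM in ndLN DN Tregs and at 1260.1, 1138 and 566 CPM in TIL DN Tregs. In IL10 Tregs it went from 111, 132 and 101 to 1061, 857 and 512 CPM, and in Ebi3 Tregs from 105, 90.1 and 66 to 832, 714 and 370.4 CPM. Every tumour library lay above every node library, and the log2 fold changes were 3.34 ± 0.26 (adjusted p = 1.3e-09), 2.95 ± 0.26 (adjusted p = 1.9e-08) and 3.00 ± 0.26 (adjusted p = 8.9e-09) in DN, IL10 and Ebi3 Tregs. Nfkbia, which encodes the inhibitor that holds NF-kB dimers in the cytoplasm, stood at 619, 526 and 599 CPM in ndLN DN and 2787, 1231 and 1369.7 CPM in TIL DN Tregs, with no overlap between the sites in any subset. Its log2 fold changes were 1.70 ± 0.18, 1.68 ± 0.18 and 1.58 ± 0.18. Nfkbiz, an atypical inhibitor that acts in the nucleus, rose by 0.94 ± 0.17, 1.84 ± 0.18 and 1.54 ± 0.18, although its DN libraries overlapped at 139, 200.5 and 143 CPM in the node and 370.4, 321 and 172 CPM in the tumour. Nfkbid, a further nuclear inhibitor, rose in DN Tregs by 0.83 ± 0.21, and was 0.55 ± 0.21 in IL10 and 0.56 ± 0.21 in Ebi3 Tregs.

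Among the NF-kB subunits the picture was uneven. Nfkb2, the precursor of the non-canonical subunit, stood at 67.2, 50.7 and 47.2 CPM in ndLN IL10 and 101, 130.1 and 107 CPM in TIL IL10 Tregs and rose by 1.01 ± 0.24, 1.19 ± 0.24 and 0.77 ± 0.24 in DN, IL10 and Ebi3 Tregs. Rel, which encodes c-Rel, a subunit needed for Treg development, rose in DN Tregs by 1.10 ± 0.33, and its values of 0.85 ± 0.33 in IL10 and 0.95 ± 0.33 in Ebi3 Tregs did not pass. Nfkb1 at 0.17 ± 0.15, -0.32 ± 0.15 and 0.17 ± 0.15 and Relb at 0.38 ± 0.20, 0.60 ± 0.20 and -0.05 ± 0.20 did not pass in any subset. The call of Nfkb2 in Ebi3 Tregs was lost in each of the 3 fits that left out a batch.

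Of the 7 AP-1 subunits, 6 rose in DN Tregs and 5 in each of the other subsets. Fos, the early partner of Jun proteins, stood at 28.1, 11.1 and 15.8 CPM in ndLN DN and 755, 408 and 206 CPM in TIL DN Tregs, at 21.5, 15.4 and 15 CPM in ndLN IL10 and 518, 278 and 138 CPM in TIL IL10 Tregs, and at 8.44, 6.47 and 16.7 CPM in ndLN Ebi3 and 389, 198 and 105 CPM in TIL Ebi3 Tregs. The sites did not overlap, and batch 1 was the highest tumour library in each subset. The log2 fold changes were 4.54 ± 0.97 (adjusted p = 0.0017), 4.11 ± 0.95 (adjusted p = 0.0075) and 4.08 ± 0.96 (adjusted p = 0.0075). Junb rose by 2.08 ± 0.29, 1.92 ± 0.29 and 1.83 ± 0.29, and Fosl2, a later Fos family member, by 5.11 ± 0.84, 3.41 ± 0.76 and 4.21 ± 0.81. Jund, the remaining Jun family subunit, rose by 1.01 to 1.25. Jun rose in IL10 and Ebi3 Tregs by 5.25 ± 0.66 and 2.84 ± 0.58 and was 1.28 ± 0.54 in DN Tregs, where the node already held 9.93, 18.7 and 6.82 CPM and the tumour 40.6, 24.3 and 11.8 CPM. Fosb had 1 count over the ndLN DN libraries and 734 over the TIL DN libraries, a ratio of CPM of 649 with a 95% counting interval of 116 to 25663, and was not called in the other subsets. Fosl1 had 0 counts in ndLN DN Tregs and was at least 23.3-fold higher in TIL DN Tregs against the floor of 3 counts over the group, a call that was lost in each of the 3 fits that left out a batch.

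**Figure D1:**
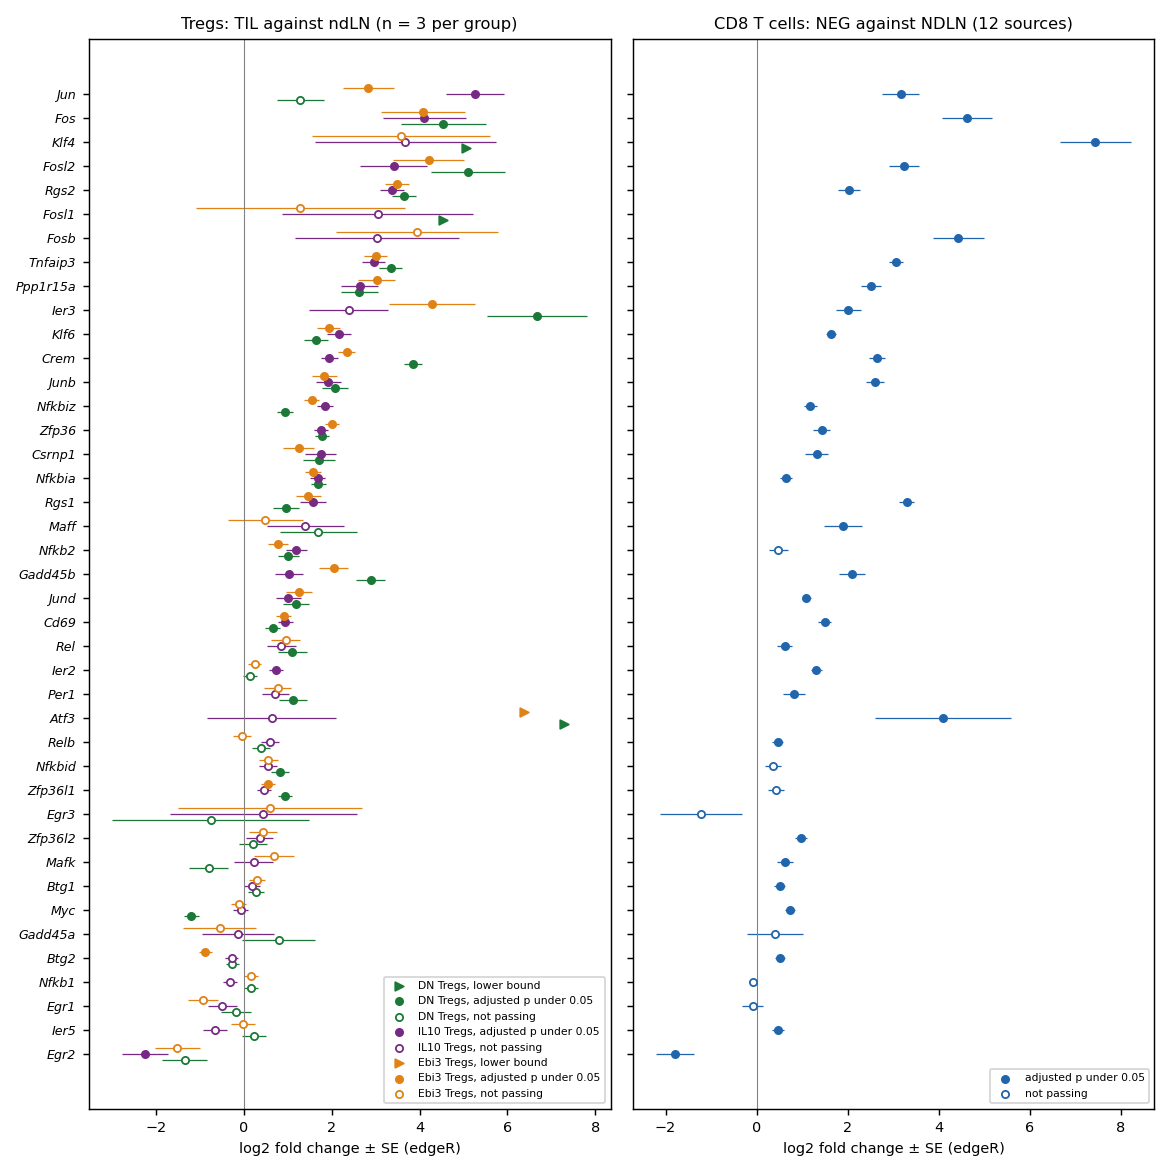
Log2 fold changes ± SE (x axis) of the 41 members (y axis, ordered by the value in IL10 Tregs) from non-draining node to tumour, in 3 Treg subsets (left, 3 libraries a group) and from NDLN to NEG in CD8 T cells of 12 sources (right, Fosl1 not tested). Filled points had an adjusted p under 0.05, triangles are lower bounds for members with 0 counts in the node, and Fosb in DN Tregs (1 count in the node) is not drawn. Most points lie to the right of 0 in both panels, while Egr2 lies to the left in each.

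Among the other transcriptional regulators, Crem, a factor that binds cAMP response elements, did not overlap between the sites in any subset. It stood at 65.7, 46 and 80.4 CPM in ndLN DN and 786, 744 and 1018 CPM in TIL DN Tregs, and rose by 3.85 ± 0.20 (adjusted p = 1.8e-13), 1.95 ± 0.19 (adjusted p = 3.1e-08) and 2.34 ± 0.19 (adjusted p = 8.2e-10) in DN, IL10 and Ebi3 Tregs. Klf6, a zinc finger factor, rose by 1.64 ± 0.27, 2.17 ± 0.27 and 1.93 ± 0.27, and Csrnp1, a nuclear protein, by 1.71 ± 0.36, 1.75 ± 0.35 and 1.25 ± 0.35. Atf3, a stress-induced bZIP factor, had 0 counts in all 6 ndLN DN and ndLN Ebi3 libraries, and it was at least 156-fold higher in TIL DN and at least 83.2-fold higher in TIL Ebi3 Tregs. In ndLN IL10 Tregs Atf3 stood at 2.22, 5.17 and 0 CPM and in TIL IL10 Tregs at 2.50, 2.95 and 2.28 CPM, groups that overlapped. Klf4, also a zinc finger factor, had 0 counts in ndLN DN Tregs and was at least 33.0-fold higher in TIL DN Tregs, though 1 of the 3 tumour libraries was also at 0 and the call was lost in each fit that left out a batch. The EGR factors did not follow: Egr1 was -0.17 ± 0.34, -0.49 ± 0.34 and -0.93 ± 0.34, and Egr2, a brake on antigen receptor responses, fell in IL10 Tregs by 2.25 ± 0.52, from 32.4, 53.8 and 30.1 to 8.0, 6.62 and 7.0 CPM. Myc, the growth regulator, fell in DN Tregs by 1.19 ± 0.17 (adjusted p = 6.9e-06) and was -0.07 ± 0.17 and -0.11 ± 0.17 in IL10 and Ebi3 Tregs.

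Early response, mRNA decay and surface genes added further members. Zfp36, an mRNA decay factor, stood at 182, 196 and 149 CPM in ndLN IL10 and 682, 459.5 and 478 CPM in TIL IL10 Tregs and rose by 1.77 ± 0.16, 1.76 ± 0.16 and 2.00 ± 0.16 in DN, IL10 and Ebi3 Tregs. Rgs2, which shortens G protein signals, stood at 44.7, 51.1 and 57.3 CPM in ndLN Ebi3 and 581, 650.5 and 358 CPM in TIL Ebi3 Tregs and rose by 3.64 ± 0.28, 3.37 ± 0.28 and 3.49 ± 0.28. Ppp1r15a, a stress-induced partner of protein phosphatase that restores translation, rose by 2.63 ± 0.42, 2.64 ± 0.42 and 3.02 ± 0.42. In these 3 genes no node library reached a tumour library. Smaller changes were those of Cd69, a receptor that retains T cells in tissue, at 0.66 ± 0.17, 0.94 ± 0.17 and 0.91 ± 0.17, and of Rgs1, the other regulator of G protein signalling, at 0.96 ± 0.29, 1.57 ± 0.29 and 1.47 ± 0.29. Btg2, an antiproliferative gene, fell in Ebi3 Tregs by 0.87 ± 0.15, while Btg1, Ier5, Gadd45a and Zfp36l2 did not pass in any subset. Of the 17 members that rose in every subset, 9 also passed in every subset in each of the 3 fits without a batch: Junb, Zfp36, Klf6, Rgs2, Tnfaip3, Nfkbia, Nfkbiz, Crem and Ppp1r15a.

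Markers of other cells were read beside these changes. The 9 myeloid markers summed to 2.37 to 4.43 CPM in ndLN DN and 6.39 to 22.9 CPM in TIL DN Tregs, to 19.1 to 27.8 and 5.95 to 22.3 CPM in IL10 Tregs, and to 3.14 to 211 and 9.64 to 10.6 CPM in Ebi3 Tregs. The highest of these values is ndLN Ebi3 replicate 3, without which 20 of the members passed from node to tumour in Ebi3 Tregs, against 22 with it. The 6 stromal markers summed to 165 to 272 CPM in ndLN DN and 65.1 to 117 CPM in TIL DN Tregs, nearly all from Pecam1, with Dcn and Sparc at 0 in both. The 6 B cell markers summed to 18 to 54.6 and 18.1 to 35.1 CPM there, with Pax5 at 0. The part of these transcripts in the result was not tested.

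Tregs of the non-draining node were next set against naive Tregs, a contrast of sources that are not the tumour. None of the 41 members passed in DN, IL10 or Ebi3 Tregs in edgeR's quasi-likelihood test, where 0.0852%, 0.0542% (0.0465% rose) and 0.00775% of all genes passed. At an unadjusted p under 0.05 the counts were 11, 5 and 6 members, beside 959, 763 and 613 of all 12907 genes. DESeq2 called 1 (Cd69), 1 (Jun) and 0 members, for which the share of all genes was not computed. The members' median log2 fold change was -0.06, -0.10 and -0.12. For Tnfaip3 the naive DN libraries stood at 52.4, 110.2 and 53.4 CPM and the ndLN DN libraries at 102, 133 and 78.6 CPM. Fos stood at 127, 178 and 7.12 CPM in naive DN Tregs, with batch 3 far below the others, and at 28.1, 11.1 and 15.8 CPM in ndLN DN Tregs. These comparisons share the ndLN libraries with the tumour comparisons. Without batch 3, 1 member (Jun) passed in IL10 Tregs.

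The Treg subsets differed from one another in the node and in the naive source, in both directions. In the node, 5 members rose and 6 fell in IL10 against DN Tregs, where 16.2% of all genes passed (8.81% rose, 7.37% fell). There 1 member rose and 7 fell in Ebi3 against DN Tregs, where 13% of all genes passed (6.96% rose, 6.07% fell). In naive Tregs, 8 rose and 5 fell in IL10 against DN Tregs, where 17.8% of all genes passed (9.98% rose, 7.85% fell). There 2 rose and 5 fell in Ebi3 against DN Tregs, where 12.8% of all genes passed (7.4% rose, 5.45% fell). The members that passed were 26.8%, 19.5%, 31.7% and 17.1% of the 41 in these comparisons. Comparisons with DN Tregs at one site share the DN libraries, so their values are given side by side.

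Crem and Myc ran in opposite orders. Crem stood at 65.7, 46 and 80.4 CPM in ndLN DN, 108, 118 and 143 CPM in ndLN Ebi3 and 199.7, 281 and 339 CPM in ndLN IL10 Tregs. These groups did not overlap, and the log2 fold change against DN was 0.89 ± 0.19 in Ebi3 and 2.10 ± 0.19 in IL10 Tregs. In the naive source it stood at 57.9, 56.3 and 70.3 CPM in DN, 99, 138 and 94.7 CPM in Ebi3 and 230.0, 202 and 241 CPM in IL10 Tregs, and rose against DN by 0.79 ± 0.19 and 1.87 ± 0.19. Myc stood at 448, 374 and 406 CPM in ndLN DN, 246, 182 and 254 CPM in ndLN Ebi3 and 120.5, 83.4 and 164 CPM in ndLN IL10 Tregs. It fell against DN by 0.91 ± 0.17 in Ebi3 and 1.75 ± 0.17 in IL10 Tregs. In naive Tregs the falls of Myc were 0.98 ± 0.17 and 1.84 ± 0.17, and all 4 calls of Myc held in each fit without a batch. The call of Crem in naive Ebi3 against DN Tregs was lost without batch 1, without batch 2 and without the batch block, while its other 3 calls held in each fit without a batch.

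Gadd45b and Ier3, both induced by NF-kB and linked to cell survival, were highest in IL10 Tregs outside the tumour. Gadd45b stood at 16.8, 21.1 and 13.2 CPM in ndLN DN, 25, 48.4 and 26.6 CPM in ndLN Ebi3 and 56.7, 88.3 and 57.7 CPM in ndLN IL10 Tregs. It rose in IL10 against DN by 2.00 ± 0.33 in the node and 2.16 ± 0.33 in naive Tregs. Ier3 stood at 0.0662, 0 and 0.620 CPM in ndLN DN and 5.46, 1.72 and 10.4 CPM in ndLN IL10 Tregs and rose by 4.62 ± 1.07. In naive DN Tregs Ier3 had 0 counts, and it was at least 177-fold higher in naive IL10 and at least 18.9-fold higher in naive Ebi3 Tregs against the floor of 3 counts over the group. Atf3, at 0 counts in ndLN DN Tregs, was at least 31.6-fold higher in ndLN IL10 Tregs, where 1 of the 3 libraries was also at 0. In naive Tregs Fosl2 rose in IL10 against DN Tregs by 4.20 ± 0.90 and Nfkbia by 0.68 ± 0.18. The call of Nfkbia was lost without batch 2, without batch 3 and without the batch block, that of Ier3 in naive Ebi3 Tregs without batch 1 and without batch 3, and that of Atf3 without batch 1 and without batch 2.

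Other members were lower in the cytokine-positive subsets. Jun stood at 9.93, 18.7 and 6.82 CPM in ndLN DN, 3.13, 5.12 and 2.08 CPM in ndLN Ebi3 and 0.825, 1.80 and 0.483 CPM in ndLN IL10 Tregs, with no overlap. It fell against DN by 1.82 ± 0.57 and 3.64 ± 0.64. Nfkbiz stood at 139, 200.5 and 143 CPM in ndLN DN, 77.2, 83.5 and 81.3 CPM in ndLN Ebi3 and 79.5, 90.9 and 64 CPM in ndLN IL10 Tregs and fell against DN by 1.02 ± 0.17 and 1.04 ± 0.18. Cd69 fell in the node by 0.79 ± 0.17 in Ebi3 and 0.82 ± 0.17 in IL10 Tregs, and Ier2, an early response gene, by 0.59 ± 0.15 and 1.02 ± 0.16. In Ebi3 against DN Tregs of the node, the call of Ier2 was lost without any 1 of the batches and without the block, that of Cd69 without batch 3 and without the block, and that of Jun without batch 1, without batch 2 and without the block. Btg2 fell in IL10 against DN Tregs by 0.61 ± 0.15 in the node, a call lost without batch 2, and 0.77 ± 0.15 in naive Tregs. Zfp36 was lowest in Ebi3 Tregs, at 109, 91.1 and 86.2 CPM in the node against 184, 147 and 171 CPM in DN and 182, 196 and 149 CPM in IL10 Tregs. It fell against DN by 0.87 ± 0.15 in the node and 1.08 ± 0.15 in naive Tregs. The 6 stromal markers summed to 165 to 272 CPM in ndLN DN, 85.1 to 102 CPM in ndLN Ebi3 and 42.9 to 46.7 CPM in ndLN IL10 Tregs, nearly all from Pecam1. The 9 myeloid markers summed to 2.37 to 4.43 CPM in ndLN DN, 3.14 to 211 CPM in ndLN Ebi3 and 19.1 to 27.8 CPM in ndLN IL10 Tregs. The part of these transcripts in the result was not tested. With the batch block left out, 5 members passed in ndLN Ebi3 against DN and 6 in naive IL10 against DN Tregs, in place of 8 and 13. Without batch 2, 8 passed in naive IL10 against DN and 4 in naive Ebi3 against DN, and without batch 3, 8 passed in naive IL10 against DN.

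**Figure D2:**
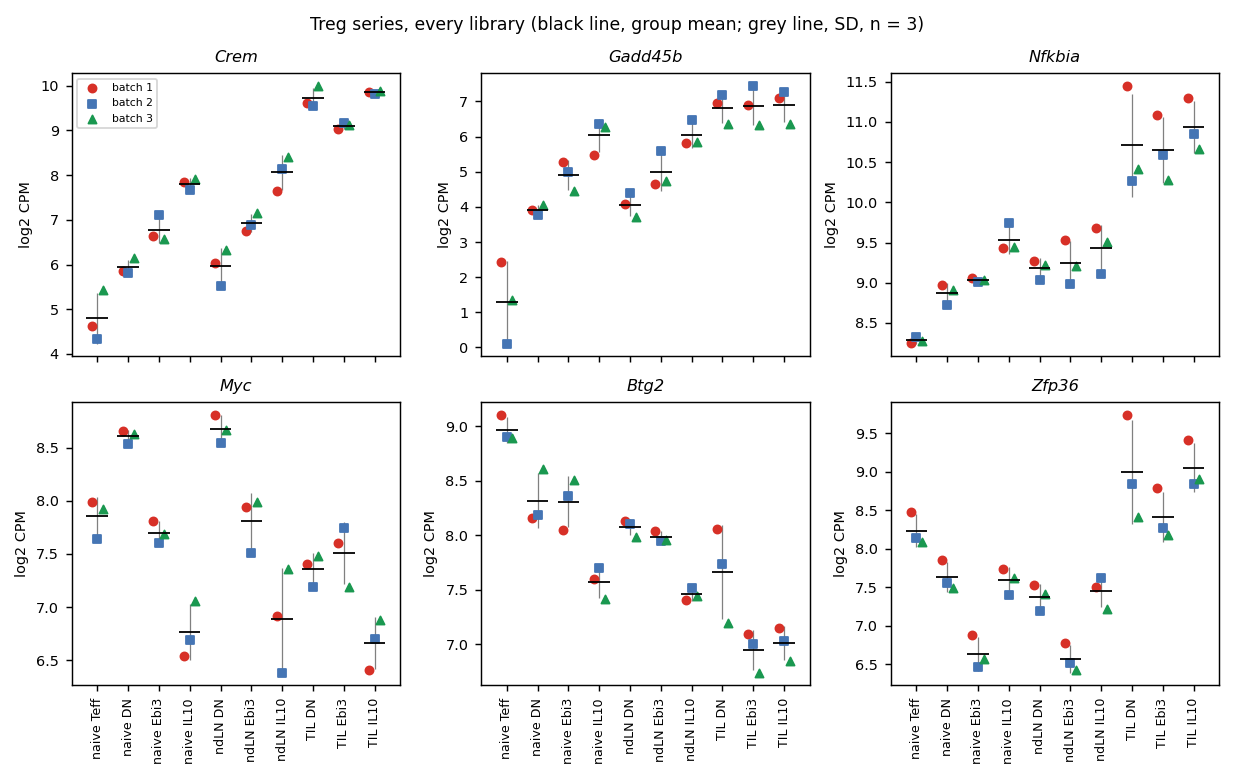
Log2 CPM (y axis) of 6 members in every library of the 10 Treg-series groups (x axis), with batches by colour and shape, means as black lines and SDs as grey lines (n = 3). Crem and Gadd45b climb from DN through Ebi3 to IL10 Tregs in the naive source and in the node, Myc descends in the same order, and Crem, Nfkbia and Zfp36 are higher in the tumour than in the node in every subset.

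In the tumour few members passed between the subsets. Between TIL IL10 and TIL DN Tregs 1 member passed (0.837% of all genes), between TIL Ebi3 and TIL DN Tregs 2 passed (0.713%), and between TIL IL10 and TIL Ebi3 Tregs 3 passed (2.84%). The median log2 fold change of the members was -0.08, -0.41 and 0.32 in these comparisons, beside -0.001, -0.003 and 0.01 over all genes. Of the members, 48.8%, 17.1% and 82.9% lay above 0, beside 49.9%, 49.6% and 51% of all genes. A shift of the members as a set was not tested. Btg2 stood at 266, 214 and 147 CPM in TIL DN, 142, 131 and 115 CPM in TIL IL10 and 137, 128 and 107 CPM in TIL Ebi3 Tregs. It fell against DN by 0.63 ± 0.15 and 0.76 ± 0.15. Zfp36 fell in Ebi3 against DN Tregs by 0.64 ± 0.15, with overlapping libraries at 441, 309 and 289.9 CPM in Ebi3 and 853, 458 and 340.0 CPM in DN Tregs. Between IL10 and Ebi3 Tregs of the tumour, Zfp36 rose by 0.71 ± 0.15, Crem rose by 0.82 ± 0.18 and Myc fell by 0.80 ± 0.17. All 3 counts became 0 without the batch block. Without batch 1 the counts were 0, 0 and 3, without batch 2 they were 0, 0 and 1, and without batch 3 they were 1, 1 and 1.

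The difference between subsets in the change from node to tumour was tested as an interaction. Between IL10 and DN Tregs 5 members passed, with 4.49% of all genes (1.98% higher), and between Ebi3 and DN Tregs 2 passed, with 1.61%. The difference for Crem was -1.91 ± 0.26 (adjusted p = 3.6e-05) in IL10 minus DN Tregs and -1.51 ± 0.26 (adjusted p = 0.0016) in Ebi3 minus DN Tregs. Crem stood at 786, 744 and 1018 CPM in TIL DN, 524, 575 and 556 CPM in TIL Ebi3 and 933, 899 and 943 CPM in TIL IL10 Tregs. The lowest node level went with the largest rise, but each rise is measured from those same node libraries, so level and rise are not independent. Gadd45b differed by -1.86 ± 0.44 (adjusted p = 0.013) in IL10 minus DN Tregs, and in the tumour its subsets overlapped at 123, 146 and 81.4 CPM in DN, 118, 173 and 80.3 CPM in Ebi3 and 138, 153 and 82.2 CPM in IL10 Tregs. Jun differed by 3.97 ± 0.82 (adjusted p = 0.0038), Nfkbiz by 0.91 ± 0.24 (adjusted p = 0.030) and Myc by 1.12 ± 0.24 (adjusted p = 0.0052) in IL10 minus DN Tregs, and Myc by 1.08 ± 0.24 (adjusted p = 0.016) in Ebi3 minus DN Tregs. Both differences for Crem held in each fit without a batch, and without the batch block 1 member passed in each test. Without batch 1, 2 or 3, the IL10 minus DN count was 3, 2 and 3, and the Ebi3 minus DN count was 1, 1 and 2.

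Naive DN Tregs were also set against naive Teff, which compares a regulatory with an effector T cell of one source. Here 10 members rose and 2 fell, with 12.2% of all genes passing (8.79% rose, 3.42% fell). Rgs1 had the largest change of those that passed, at 2.52, 8.32 and 14.8 CPM in Teff and 806, 809 and 1029 CPM in naive DN Tregs, a log2 fold change of 6.74 ± 0.38 (adjusted p = 3.6e-11). Gadd45b rose by 2.34 ± 0.36, Egr2 by 1.84 ± 0.51, Rel by 1.41 ± 0.34, Crem by 1.13 ± 0.19 and Nfkbiz by 1.10 ± 0.18, and Myc, Nfkb1, Zfp36l1 and Nfkbia rose by 0.61 to 0.79. Btg2 and Zfp36 fell by 0.60 ± 0.15 and 0.57 ± 0.15, and no AP-1 subunit passed: Fos stood at 88, 254 and 4.28 CPM in Teff and 127, 178 and 7.12 CPM in naive DN Tregs, with batch 3 lowest in both. Rgs1, Nfkbiz, Gadd45b, Myc and Crem passed in each fit without a batch.

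In CD8 T cells, the cells of the tumour that lack PD-1 and TIM-3 (NEG) were set against CD8 T cells of the non-draining node. Here too, site and the handling of the tissues cannot be told apart. Over the 12 sources, with the source as a block, 32 members rose and 1 fell of the 40 tested, beside 18.4% of all 12574 genes (12.2% rose and 6.19% fell). The members' median log2 fold change was 1.24, against 0.00 over all genes. In the 3 yfp sources alone, which are part of the 12, 12 members rose and 0 fell of 40 tested, beside 1.56% of all genes (1.32% rose). The 12 yfp calls became 2 without yfp replicate 3, and Rgs1 and Tnfaip3 passed in each fit that left out a replicate. Of the 17 members that rose in all Treg subsets, 16 are among the 32 that rose here. The exception is Nfkb2, at 0.48 ± 0.22. Since 32 of the 40 members tested rose, most members of any such list would be among them.

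Of the 6 AP-1 subunits tested 6 rose, of the 3 decay factors 2 (Zfp36 and Zfp36l2) and both G protein regulators. Fos ran from 0 to 99.9 CPM in NDLN (median 6.20) and 109 to 874 CPM in NEG (median 318), was higher in NEG in 12 of 12 sources, and rose by 4.62 ± 0.55 (adjusted p = 1.3e-08). A pair of NDLN libraries of set 8 stood high, at 69.2 CPM in yfp replicate 1 and 99.9 CPM in DKO replicate 1. Set 8 is a set of libraries named in the labels, and without both of its sources 32 members passed. Junb ran from 105 to 778 CPM in NDLN (median 179.8) and 748 to 1969 CPM in NEG (median 1331) and rose by 2.61 ± 0.20, Fosl2 by 3.23 ± 0.33, Jun by 3.16 ± 0.40 and Fosb by 4.43 ± 0.56. Klf4 was at 0 counts in 10 of the 12 NDLN libraries and ran from 1.83 to 18.1 CPM in NEG (median 4.95), with a log2 fold change of 7.44 ± 0.78.

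Rgs1 ran from 9.82 to 27.9 CPM in NDLN (median 17.5) and 85.7 to 329 CPM in NEG (median 142) and rose by 3.29 ± 0.17 (adjusted p = 2.0e-20), with no overlap. Tnfaip3 ran from 17 to 81 CPM in NDLN (median 52) and 114 to 805 CPM in NEG (median 349) and rose by 3.05 ± 0.16 (adjusted p = 2.0e-20). Crem rose by 2.64 ± 0.18, Ppp1r15a by 2.51 ± 0.22, Gadd45b by 2.09 ± 0.28, Rgs2 by 2.02 ± 0.23 and Ier3 by 2.01 ± 0.27. These genes were higher in NEG in 12 of 12 sources, apart from Rgs2 in 11 of 12. Egr2 was the member that fell, by 1.79 ± 0.42. It ran from 5.72 to 30.01 CPM in NDLN (median 16.4) and 0 to 8.26 CPM in NEG (median 6.39) and was lower in NEG in 11 of 12 sources. Members that did not pass were Egr1 at -0.09 ± 0.23, Egr3 at -1.22 ± 0.91, Nfkb1 at -0.08 ± 0.09, Nfkbid at 0.36 ± 0.18, Zfp36l1 at 0.42 ± 0.17 and Gadd45a at 0.40 ± 0.61. The 4 NK cell markers summed to 0.0520 to 16.3 CPM in NDLN and 28.2 to 171 CPM in NEG, nearly all from Klre1 and Klrb1c. The 9 myeloid markers summed to 3.0 to 12.2 and 3.30 to 94.2 CPM, and the 6 B cell markers to 39.6 to 102 and 20.2 to 65.3 CPM, with Pax5 at 0 in both. Their part in the result was not tested.

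Along the tumour populations from NEG through INT and SP to DP, members changed in both directions, as did all genes. Over the 12 sources, 2 members rose and 6 fell from NEG to INT (20% of the 40 tested, beside 15.6% of all genes, 9.37% rose and 6.22% fell). From INT to SP 6 rose and 12 fell (45%, beside 31.9%, 16.6% rose and 15.2% fell). From SP to DP 1 rose and 11 fell (30%, beside 25.9%, 12.3% rose and 13.5% fell). From NEG to DP 8 of the 40 rose and 22 fell (75%), beside 63.1% of all genes (32.9% rose and 30.2% fell). The share of members that rose there lay below that of all genes, and the share that fell lay above it. The median was -0.75 for the members and 0.01 for all genes. In the yfp sources alone 3 members rose and 15 fell from NEG to DP (33.2% of all genes), and the successive steps gave 1 rise (0.938%), 6 falls (4.89%) and 1 fall (1.21%). The single step INT against NEG had no call in any fit without a yfp replicate, SP against INT had 0, 3 and 0 without replicates 1, 2 and 3, and DP against SP had 2 (Zfp36l1, Zfp36l2) without replicate 2 and 3 (Btg2, Nfkb1, Zfp36l1) with the source as a replicate block. Comparisons that share NEG or NDLN libraries are given side by side.

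The members that fell were led by AP-1 and decay factors. Fos ran from 109 to 874 CPM in NEG (median 318), 78.4 to 498 CPM in INT (median 242), 37 to 240.1 CPM in SP (median 67.4) and 11.7 to 88 CPM in DP (median 29.1), and its NEG and DP libraries did not overlap. From NEG to DP it was lower in 12 of 12 sources, with a fall of 3.42 ± 0.50 (adjusted p = 9.9e-08). Zfp36 ran from 85.3 to 340.4 CPM in NEG (median 209), 44 to 273 CPM in INT (median 126), 15.5 to 131 CPM in SP (median 41.9) and 14.1 to 71.9 CPM in DP (median 24.3). It fell by 2.74 ± 0.20 (adjusted p = 3.8e-17), again with no overlap. Its relatives Zfp36l1 and Zfp36l2 fell by 2.07 ± 0.18 and 1.77 ± 0.13, each in 12 of 12 sources. Jun fell by 1.92 ± 0.37, Fosl2 by 1.74 ± 0.31, Fosb by 1.39 ± 0.47 and Junb by 0.96 ± 0.19, while Jund at 0.00 ± 0.10 did not pass.

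Cd69 ran from 464 to 1272 CPM in NEG (median 589), 403 to 890.2 CPM in INT (median 588), 177 to 560.0 CPM in SP (median 324) and 113 to 379 CPM in DP (median 180.4). It fell by 1.79 ± 0.14, and DP lay below every NEG library. Btg1 ran from 571 to 1409 CPM in NEG (median 899) and 156 to 382 CPM in DP (median 265) and fell by 1.80 ± 0.12, and Btg2 fell by 1.30 ± 0.11. Both antiproliferative genes had their lowest median in DP. Klf4 fell by 2.37 ± 0.58, Ppp1r15a by 1.75 ± 0.21, Csrnp1 by 1.74 ± 0.26, Mafk, a small Maf protein, by 1.54 ± 0.17, and Ier2 by 1.28 ± 0.12. Among the inhibitors of NF-kB, Nfkbiz and Nfkbid fell by 1.19 ± 0.15 and 1.16 ± 0.18.

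The 8 members that rose from NEG to DP include NF-kB genes. Nfkb2 ran from 8.66 to 98.8 CPM in NEG (median 61.7), 38 to 128 CPM in INT (median 84.3), 65.4 to 242 CPM in SP (median 153) and 71.5 to 331 CPM in DP (median 179.6). It rose by 1.5 ± 0.22 (adjusted p = 6.8e-08), higher in DP in 12 of 12 sources although the libraries overlapped. Nfkbia ran from 203 to 1243 CPM in NEG (median 486) and 379.6 to 1679 CPM in DP (median 845) and rose by 0.84 ± 0.13, and Gadd45b rose by 1.14 ± 0.27. The other NF-kB subunits did not pass, with Rel at 0.35 ± 0.16, Relb at -0.21 ± 0.12 and Nfkb1 at -0.09 ± 0.09, nor did Tnfaip3 at -0.17 ± 0.15. Rgs1 ran from 85.7 to 329 CPM in NEG (median 142), 183 to 616 CPM in INT (median 302), 206 to 613 CPM in SP (median 390.5) and 481 to 898 CPM in DP (median 676). It rose at each of the 3 steps by 0.92 ± 0.15, 0.38 ± 0.15 and 0.82 ± 0.15, and rose from NEG to DP by 2.12 ± 0.16 with no overlap. Egr2, which fell from node to NEG, rose from NEG to DP by 2.08 ± 0.43 and ran from 0 to 8.26 CPM in NEG (median 6.39) and 3.01 to 96.8 CPM in DP (median 18.8). Ier3, Rgs2 and Crem rose by 0.96 ± 0.26, 0.79 ± 0.22 and 0.40 ± 0.17. In the yfp sources alone, which are part of the 12, Rgs1, Nfkbia and Nfkb2 rose.

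Without both sources of set 8, 29 members passed from NEG to DP, against 30 with them. The 6 B cell markers summed to 20.2 to 65.3 CPM in NEG and 0 to 22.3 CPM in DP, in NEG nearly all from Cd79b, with Pax5 at 0 in both. The 6 stromal markers summed to 22.8 to 128 and 4.67 to 34.3 CPM, nearly all from Pecam1. The 9 myeloid markers summed to 3.30 to 94.2 and 13.8 to 115 CPM and the 4 NK cell markers to 28.2 to 171 and 26.2 to 189 CPM. The 3 Treg markers summed to 10.9 to 249 CPM in NEG, 94.4 to 256 in INT, 232 to 438 in SP and 165 to 432 in DP, nearly all from Ikzf2 and Il2ra, with Foxp3 at most at 0.334 CPM in NEG and 1.63 CPM in DP. The 5 pigment cell markers summed to 4.38 to 33.1 and 1.32 to 9.69 CPM, in NEG nearly all from Pmel. The part of these transcripts in the result was not tested. Summed over the 41 members, the median library went from 8719 CPM in NEG to 5331 CPM in DP, and NDLN stood at 3299.9 CPM.

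**Figure D3:**
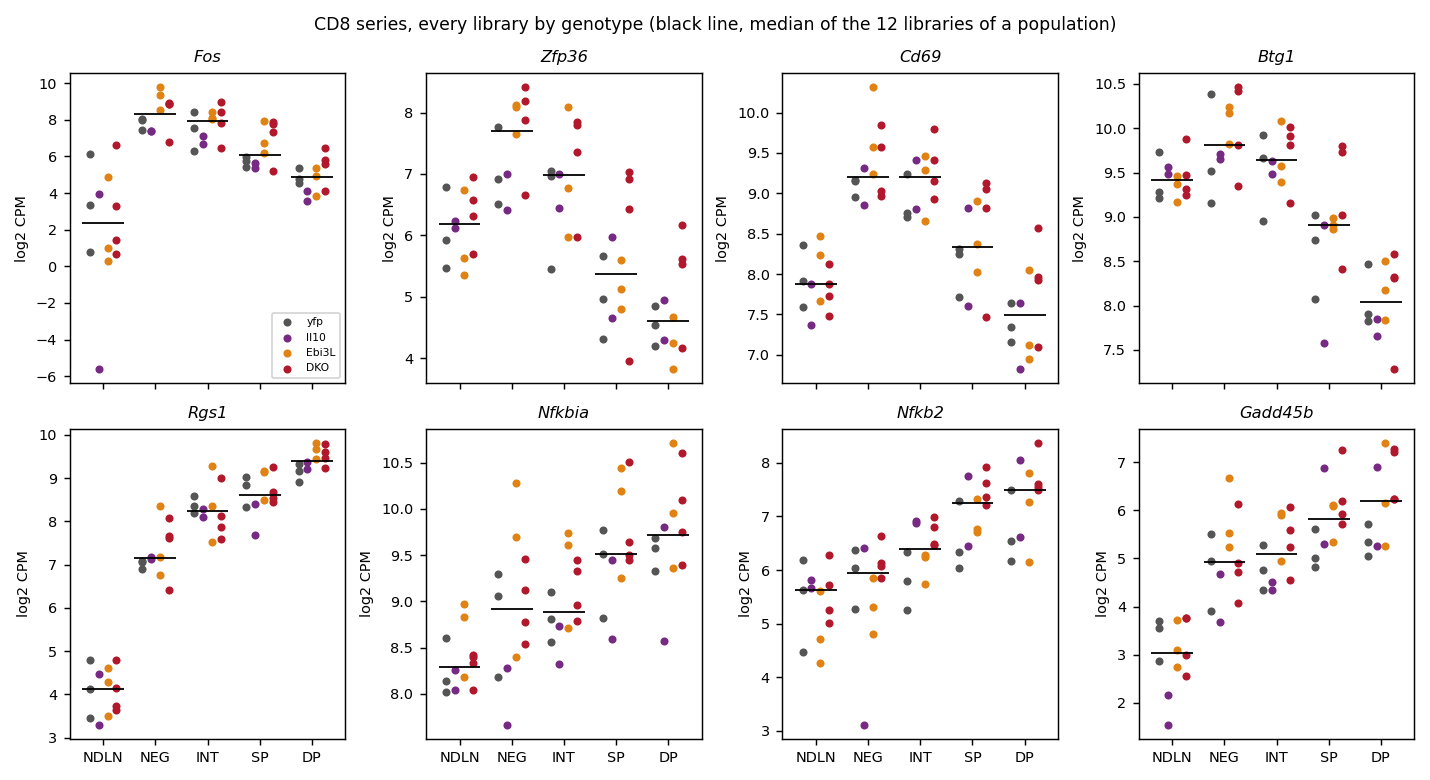
Log2 CPM (y axis) of 8 members in every CD8 library by population (x axis) and genotype (colour), with the median of the 12 libraries of a population as a black line. Fos, Zfp36, Cd69 and Btg1 are highest in NEG and lower in DP, Rgs1 is higher in each successive population, and Nfkbia, Nfkb2 and Gadd45b have their highest medians in DP.

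**Figure D4:**
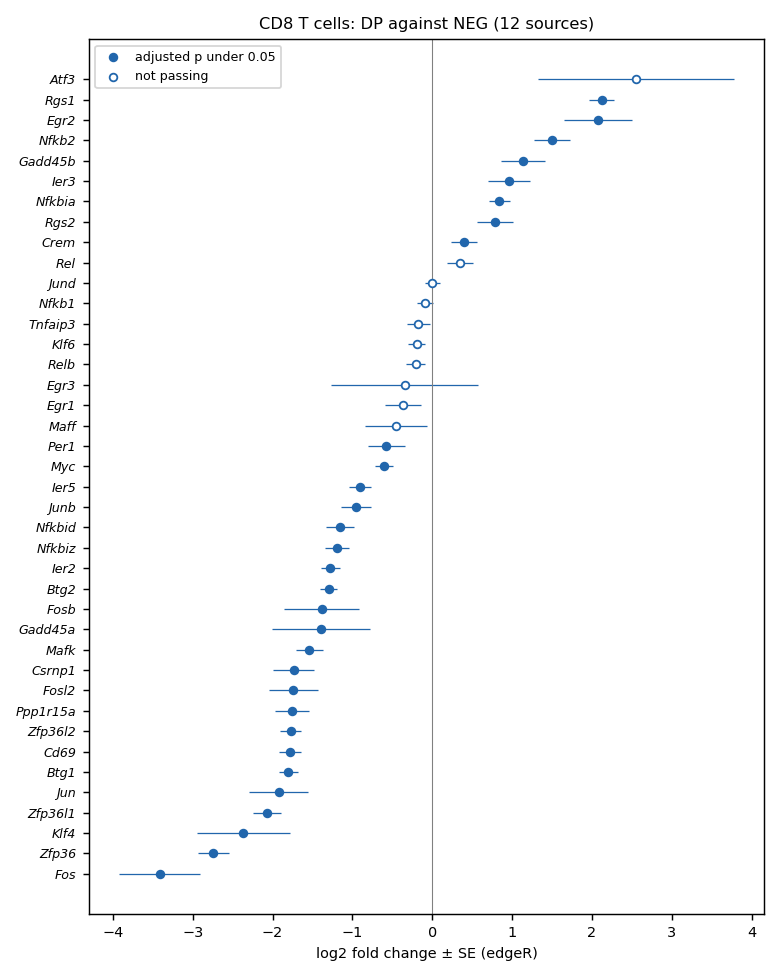
Log2 fold changes ± SE (x axis) from NEG to DP in CD8 T cells of 12 sources for the 40 members tested (y axis, in order of size). Filled points had an adjusted p under 0.05: 22 lie to the left of 0, with Fos farthest, and 8 to the right, with Rgs1 and Egr2 farthest.

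The CD8 T cells of mice with knockout Tregs were set against yfp within each population, 15 comparisons that share the yfp libraries. No member passed in any of them in edgeR's quasi-likelihood test, and at most 0.00811% of all genes did. At an unadjusted p under 0.05 the counts of members were highest in SP and DP cells of DKO, at 22 of 40 and 16 of 39, beside 973 of 13255 and 680 of 12943 genes of all. DESeq2 called 6 members in SP DKO (Btg2, Ier2, Junb, Nfkbiz, Zfp36 and Zfp36l1), Nfkbiz in DP DKO and Ier3 in DP Ebi3L, all higher than in yfp, and 0 in the other 12. With no filter on low counts edgeR called 17 in SP DKO. The shares of all genes called by these alternatives were not computed, so whether the counts are particular to the members was not tested. The median log2 fold change of the members against yfp was -0.04 in NDLN, 0.41 in NEG, 0.24 in INT, 0.82 in SP and 0.66 in DP cells of DKO. In Ebi3L it was -0.12, 0.43, 0.27, 0.37 and 0.21. In Il10 it was -0.11, 0.03, 0.00, 0.20 and 0.11, while within batch 1 alone it was below 0 in every population. Over all genes these medians lay between -0.06 and 0.02.

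The DKO libraries of SP cells did not move together. Fos stood at 159, 37, 218 and 234 CPM in the 4 DKO libraries, 54.3, 62.7 and 42.3 CPM in yfp, 41.5 and 50.4 CPM in Il10 and 72.1, 240.1 and 107 CPM in Ebi3L. DKO replicate 2, the only DKO library of batch 2, was the lowest of the 4, below all yfp libraries, and the other 3 lay above them. The same library was also the lowest of the 4 for Zfp36, at 86.1, 15.5, 131 and 121 CPM in DKO and 50.8, 31 and 19.8 CPM in yfp, and for Ppp1r15a, at 260.0, 47.9, 279.8 and 184 CPM in DKO and 116, 145 and 77 CPM in yfp. Their log2 fold changes in the fit with batch were 1.80 ± 0.47 (adjusted p = 0.46), 1.34 ± 0.32 (adjusted p = 0.44) and 0.77 ± 0.45 (adjusted p = 0.69). Summed over the 41 members, SP libraries ran from 5706 to 10019.6 CPM in DKO and from 4040.1 to 6709.8 CPM in yfp, which overlap. Within batch 1, which holds 3 DKO and 2 yfp libraries of each population, the median difference of the members was 0.82 in SP, 0.67 in DP, 0.38 in NEG, 0.23 in INT and -0.01 in NDLN. Ebi3L against yfp differed between batches, at 0.09 in batch 1 and 0.71 in batch 3 in SP cells and at 0.14 and 0.80 in NEG cells. Of each population batch 1 holds 1 Ebi3L and 2 yfp libraries and batch 3 holds 2 Ebi3L and 1 yfp library. Batch 1 also holds 1 Il10 library of each population. Against yfp in that batch its median was -0.15, -0.24, -0.18, -0.19 and -0.23 in NDLN, NEG, INT, SP and DP. The other Il10 library lies in batch 2, which holds no yfp library, so the Il10 medians of the fit reach yfp partly through DKO. Without DKO replicate 1, 1 member (Btg1) passed in SP DKO against yfp. Without Il10 replicate 2, the 1 Il10 library left is assumed to vary like the other groups. It lies in batch 2 and meets yfp only through DKO replicate 2. In NEG cells that fit gave log2 fold changes against yfp of 1.85 for Fos, 2.00 for Ier5 and 2.17 for Jun. Fosb was -3.47 and Nfkb2 -2.62, and Egr2 was also lower. The library left, NEG Il10 replicate 1, had the fewest genes detected of all 90 libraries, at 10400.

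**Figure D5:**
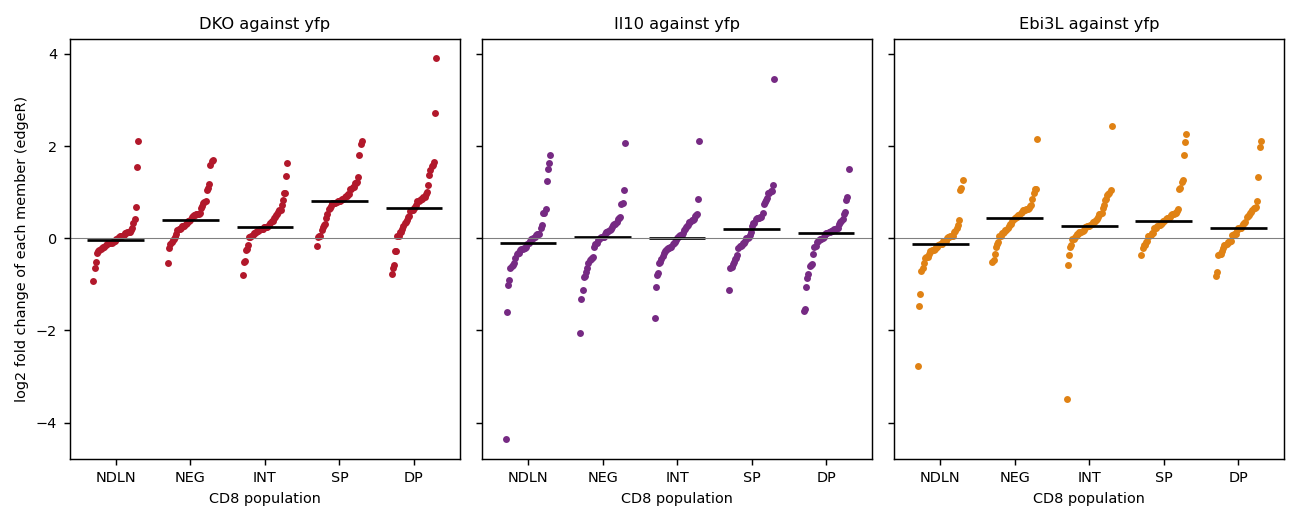
Log2 fold change against yfp (y axis) of each member tested (points, in order of size within a population) in 5 CD8 populations (x axis) for DKO, Il10 and Ebi3L, with the members' median as a black line. Medians of DKO are 0.82 in SP and 0.66 in DP and close to 0 in NDLN, and no single point had an adjusted p under 0.05.

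The genes around the module were read from 3 lists: 26 of the NF-kB pathway, 24 of the MAP kinase and serum response factor arm and 12 other bZIP and early factors. These lists were also chosen with earlier results of these data known. From node to tumour in DN Tregs 7 of the 25 NF-kB pathway genes tested rose and 2 fell, 6 of 24 rose and 2 fell in the MAP kinase arm, and 5 of 11 rose and 1 fell among the other factors. In IL10 Tregs the counts were 7 and 0, 6 and 0, and 3 and 1, and in Ebi3 Tregs 5 and 1, 5 and 1, and 4 and 2. The shares that rose were 28%, 25% and 45.5% in DN, 28%, 25% and 27.3% in IL10 and 20%, 20.8% and 36.4% in Ebi3 Tregs, beside 12.9%, 5.56% and 6.24% of all genes. Dusp1 and Dusp5, phosphatases that switch off MAP kinases, rose in every subset: Dusp1 by 3.31 ± 0.48, 2.87 ± 0.47 and 3.12 ± 0.47 and Dusp5 by 2.58 ± 0.36, 1.60 ± 0.35 and 2.56 ± 0.36 in DN, IL10 and Ebi3 Tregs. Bcl3, a nuclear partner of NF-kB, rose by 1.06 ± 0.21, 0.94 ± 0.20 and 1.77 ± 0.21, and the orphan receptor Nr4a2 by 6.65 ± 1.19, 3.18 ± 0.99 and 4.08 ± 1.04. Bach2, a repressor of AP-1 target genes, fell by 3.50 ± 0.58 in DN and 4.62 ± 0.64 in Ebi3 Tregs. No gene of the 3 lists passed between node and naive source in any subset.

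In CD8 T cells of the 12 sources 4 of 25, 4 of 24 and 7 of 12 genes of these lists rose from NDLN to NEG and none fell. For the NF-kB pathway and the MAP kinase arm the shares called, 16% and 16.7%, lie near the 18.4% of all genes (12.2% rose), and for the other factors the share was 58.3%. Among them were Dusp1 at 4.25 ± 0.32, Dusp5 at 3.22 ± 0.25, Nr4a2 at 3.72 ± 0.46, Nr4a1 at 2.63 ± 0.31 and Map3k8, a kinase upstream of MAP kinases, at 2.28 ± 0.20. From NEG to DP, in the NF-kB pathway 2 of 25 genes rose and 13 fell, among them Bcl3 by 1.77 ± 0.12 and Map3k14, the kinase of the non-canonical arm, by 1.73 ± 0.20. In the MAP kinase arm 6 of 24 rose and 11 fell. The shares called in these lists, 60% and 70.8%, lie near the 63.1% of all genes, while 52% and 45.8% fell, beside 30.2% of all genes. Of the 12 other bZIP and early factors, 8 rose and 2 fell, 66.7% and 16.7%, beside 32.9% and 30.2% of all genes. Those that rose include Nr4a2 at 3.46 ± 0.42, Jdp2, a partner of Jun, at 2.76 ± 0.43, Irf4 at 1.89 ± 0.38 and Batf, the AP-1 factor that pairs with Irf4, at 1.17 ± 0.11. Bach2 and Bach1 fell by 3.66 ± 0.25 and 2.01 ± 0.43.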

How the data were processed

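RNA was sequenced from 90 libraries of double-sorted T cells, made per the labels' protocols with SMART-Seq v4 (Tregs) or v3 (CD8) and Nextera XT. The deposited counts are whole reads per gene, and per the submitters' processing notes STAR, featureCounts (Subread) and limma were used on mm10, with versions, strand setting and annotation not given in the sources used here. A further deposited table for each series holds the authors' normalized, batch-adjusted log2 values of the same libraries. These values were used in one alternative, whose fits again held the batch or source term. The members and lists were chosen with earlier results of these data known.

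Levels are CPM of library totals, and on the log2 scale 0.5 was added to each count. Counts were tested with edgeR 4.0.16 (TMM, filterByExpr, robust quasi-likelihood fits) in R 4.3.3, with Benjamini-Hochberg adjustment over all genes tested and a threshold of 0.05. The Treg fit holds 30 libraries with the labels' batch as a block, the yfp fit 15 libraries with a batch term, the fit of 12 sources 60 libraries with the source as a block, and each genotype fit 12 libraries of a population with a batch term. SE is the absolute log2 fold change over the square root of F. Same-numbered Treg libraries deviated together with a median correlation of 0.0955 over 135 pairs (lowest 0.0169), beside -0.0730 over 270 other pairs, and the block follows the labels' batches. In the yfp libraries the median was 0.198 within a source. Over all CD8 libraries it was 0.114 over 120 pairs of a source, beside -0.0108 over 1585 other pairs, which reached 0.296. No 2 libraries of a group agreed within sampling noise (95 pairs). The fitting code was tested on simulated data.

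Members passing in a comparison are named by size of change, up to 12 in each direction, beside members of the same role that did not pass, and surrounding genes up to 4 in each direction. Values by library are given for the members with the most calls and for those the text describes. Alternatives were DESeq2 1.42.0 (its size factors, and its test), library totals and limma 3.58.1 on the deposited log2 values. Others were no filter, the block dropped or added and each replicate left out. In the fit of 12 sources, sources were not left out in turn. Promoters come from RefSeq tables on GRCm38.p6, the assembly of mm10. Intervals and floors cover counting error only.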

Additional observations from a re-analysis of the deposited data

Results flagged for a closer look

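The change from node to tumour differed between Treg subsets for 5 members in IL10 minus DN Tregs and for 2 in Ebi3 minus DN Tregs, by the interaction test of edgeR. In IL10 minus DN Tregs the log2 differences were 3.97 for Jun, 0.91 for Nfkbiz and 1.12 for Myc, and -1.86 for Gadd45b and -1.91 for Crem. In Ebi3 minus DN Tregs they were 1.08 for Myc and -1.51 for Crem.

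Single DKO libraries stood far from the other 3 of their group in 5 of 60 combinations examined, 12 members in each of the 5 DKO groups, by Dixon's ratio at its 95% critical value. Chance marks about 1 in 20 independent groups, and these are not independent, since the 5 values come from 3 libraries. In NDLN cells DKO replicate 1 was highest for Fos at 99.9 CPM, Ppp1r15a at 213 CPM and Klf4 at 0.260 CPM. In NEG cells DKO replicate 2 was lowest for Fos at 108.8 CPM, and DKO replicate 3 stood apart for Fosl2 at 72.5 CPM.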

How the results depend on the processing

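No called direction reversed under any alternative. Of the values for members called in the main fits, 1999 stayed under the threshold and 272 did not. Members that passed only in an alternative are not in this tally. Counts below are members called, and the cause of each change was not tested. The shares of all genes called under the alternatives were not computed. With DESeq2 size factors TIL Ebi3 against DN gave 1, and with library totals it gave 1 and yfp DP against SP 2. DESeq2's own test gave 1 and 1 in DN and IL10 Tregs of the node against naive, 2 and 4 in TIL IL10 and Ebi3 against DN, 21, 10 and 3 in yfp NEG against NDLN, SP against INT and DP against SP, 6 in SP DKO, 1 in DP DKO and 1 in DP Ebi3L against yfp. Limma on the deposited log2 values gave 0 and 0 in TIL IL10 and Ebi3 against DN, 3 and 1 in the differences IL10 minus DN and Ebi3 minus DN, and 7, 0 and 3 in yfp NEG against NDLN, INT against NEG and SP against INT. With no filter, yfp INT against NEG gave 0 and DP against SP 3. Against yfp with no filter, DKO gave 4 in NEG, 1 in INT and 17 in SP, Il10 gave 1 each in NDLN, INT and SP, and Ebi3L gave 3 in NEG, 2 in INT and 3 in SP.

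Without the replicate block on batch, the counts were 0, 0 and 0 in TIL IL10 against DN, Ebi3 against DN and IL10 against Ebi3, 5 in ndLN Ebi3 against DN, 6 in naive IL10 against DN, and 1 and 1 in the differences. With the source as a replicate block yfp DP against SP gave 3, and the other yfp comparisons stayed within 1.5 times their counts.

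Leaving out each replicate in turn gave 0 to 1 in IL10 Tregs of the node against naive, 0 to 1 in TIL IL10 against DN, 0 to 1 in TIL Ebi3 against DN and 1 to 3 in TIL IL10 against Ebi3. It gave 8 to 11 in naive IL10 against DN, 4 to 7 in naive Ebi3 against DN, and 2 to 3 and 1 to 2 in the differences. In yfp cells it gave 2 to 12 in NEG against NDLN, 0 to 0 in INT against NEG, 0 to 3 in SP against INT and 1 to 2 in DP against SP. Against yfp it gave 0 to 1 in SP DKO. For NEG Il10 the fit without Il10 replicate 2 leaves 1 Il10 library, in a batch with no yfp library, so its count is not given. From node to tumour the counts were 18 to 24, 16 to 19 and 16 to 20 in DN, IL10 and Ebi3 Tregs. Chosen after seeing the data, leaving out both sources of set 8 gave 32, 8, 16, 12 and 29 in the 5 comparisons of 12 sources, and dropping the batch term left the 15 genotype counts within 1.5 times their values.

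With 2 to 4 libraries a group, small changes can be missed, and members near the floor (Fosl1, Klf4, Atf3, Egr3) have wide errors. Batches and genotypes overlap in part, and DKO has 1 library in batch 2, which holds no yfp library.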
